A study of Mus musculus with 14 samples.

Results

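*Etv1*-high neurons of the postnatal day 5 (P5) mouse pons were selected on measured transcript counts from single-cell RNA-seq of the pontine nuclei (PN). A cell was taken when its library was from P5, it had at least 1000 detected genes and under 10% mitochondrial counts, and its unique molecular identifiers (UMIs, each standing for 1 captured transcript) met the following limits. It carried at least 20 UMIs of the neuronal gene *Mapt*, at least 1 each of *Slc17a6* and *Barhl1*, none of *En2*, at least 2 of *Etv1*, at most 1 each of *Hoxb5* and *Nr2f2*, and at most 4 of *Cdkn1c*. These limits gave 372 cells, 242 in library 1 and 130 in library 2, out of 8074 P5 neurons that met the limits on *Mapt*, *Slc17a6*, *Barhl1* and *En2* (base-gate neurons), 17908 P5 cells within the quality limits, 25407 P5 barcodes and 150188 barcodes in the 14 libraries of the series. Since the rule used *Etv1* and the other 7 gate genes, their levels are given as a description only. The same holds for *Igf1*, *Dmkn*, *Ntf3* and *Bcl11b*, the marker genes supplied with the rule, because they were picked from these P5 libraries.

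PN neurons are glutamatergic precerebellar neurons that relay cortical input to the cerebellum as mossy fibers, and they descend from *Atoh1*-expressing progenitors of the rhombic lip. *Etv1* encodes an ETS transcription factor of the PEA3 group, best known for its induction by neurotrophin-3 in proprioceptive sensory neurons and for marking layer 5 projection neurons of the cortex. *Igf1* encodes insulin-like growth factor 1, *Ntf3* encodes neurotrophin-3, *Dmkn* encodes the secreted epidermal protein dermokine, and *Bcl11b* (Ctip2) encodes a zinc finger transcription factor of corticospinal and other projection neurons.

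All mice of the series, on a C57BL/6J background, carried Cre in place of the coding sequence of 1 *Atoh1* allele together with a Cre-dependent TdTomato reporter (Rosa lsl-TdTomato/+). Controls were Atoh1Cre/+, with 1 wild-type *Atoh1* allele, and mutants were Atoh1Cre/S193A, also written Atoh1S193A/-, whose remaining allele encodes alanine in place of serine 193. TdTomato-positive, DAPI-negative live cells were sorted, so that the cells analysed were those with a history of *Atoh1* expression and whatever else passed the sort. Both P5 libraries came from control pups whose PN were microdissected and pooled, while the 6 E14.5 and 6 E18.5 libraries each came from the hindbrain of 1 embryo, 3 control and 3 mutant at each age, each mutant with a littermate control. No mutant P5 library was analysed here, and the 2 P5 libraries are pools. Fits at P5 took the library as a block and shared the estimate of spread over all cell groups. Their p-values therefore measure how far differences between cell groups varied between 2 pooled preparations, and not the spread between pups. Whole libraries held 108239001 to 236964126 UMIs. Of the P5 barcodes 38 occurred in both libraries, and 0 of them were among the *Etv1*-high neurons.

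*Etv1*-high neurons made up 4.84% of base-gate neurons in P5 library 1 (exact Clopper-Pearson 95% interval 4.26 to 5.47) and 4.24% in library 2 (3.55 to 5.01), with intervals that overlap and that cover counting error only. The lower limit on *Etv1* cut through a continuous distribution. Just outside it, 196 cells of library 1 and 97 of library 2 had 1 *Etv1* UMI, and just inside it 74 and 31 cells had 2. The median member had 4 *Etv1* UMIs in library 1 and 5 in library 2, and the highest had 43 and 31. Upper limits on the other gate genes kept out a further 62 and 35 cells with *Etv1* but high *Hoxb5*, 40 and 24 with high *Nr2f2*, and 36 and 17 with high *Cdkn1c*. Among those cells kept out, the 7.5% of cells with the highest doublet scores of each library (Scrublet, which compares cells with artificial mixtures) took 11.4% to 21.0% of the *Hoxb5*-high cells and 50.0% to 58.8% of the others, against 9.09% and 6.15% of the *Etv1*-high neurons themselves.

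For comparison, 4 other groups were taken from the same base-gate neurons: 3463 marker-low neurons (no *Etv1* UMI and low for the other 3 genes), 1388 *Cdkn1c*-high, 1030 *Hoxb5*-high and 612 *Nr2f2*-high neurons, each high for 1 of the genes that the rule keeps low. *Etv1*-high neurons were deep, with medians of 39362 and 46070 UMIs and 6787 and 7176 genes per cell, against 27765 and 30752 UMIs in marker-low and 37342 and 43569 in *Hoxb5*-high neurons. A limit of 2 UMIs is passed more easily by a deeper cell, and the part of this in the choice of cells was not tested. Thinning every cell to 5000 UMIs, used below, equalises depth after the cells were chosen on their full counts.

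All 5 marker genes were high in the *Etv1*-high neurons of both libraries. Levels are given as CPM (the share of a group's summed UMIs, scaled to 1000000 UMIs), without a correction for gene length. *Etv1* (mm10, chromosome 12, 38779380 to 38870484) stood at 152 and 153 CPM in libraries 1 and 2, against 0 in marker-low neurons by definition and 1.29 to 1.96 in the other 3 groups. *Igf1* (chromosome 10, 87858265 to 87937042) stood at 160.4 and 191 CPM in *Etv1*-high neurons, at 5.00 and 6.09 in marker-low neurons and at 1.17 to 9.27 in the other groups. The highest of those comparator values, in *Nr2f2*-high neurons of library 2, included 56 *Igf1* UMIs from 1 cell. *Dmkn* (chromosome 7, 30763756 to 30781063) reached 104 and 107 CPM, against 2.82 to 6.39 across the comparator groups, and *Ntf3* (chromosome 6, 126101412 to 126166910) reached 24.8 and 28.0 CPM, against 2.09 and 2.47 in marker-low, 3.51 and 5.13 in *Nr2f2*-high and under 0.5 in *Cdkn1c*-high and *Hoxb5*-high neurons. *Bcl11b* (chromosome 12, 107910403 to 108003602) had a smaller margin, at 121 and 119 CPM against 28.7 and 29.0 in marker-low and 4.82 to 20.6 in the other groups. For each of the 5 genes the *Etv1*-high values of both libraries lay above every value of the comparator neurons, which had at most 1 *Etv1* UMI. Cells with at least 2 that another limit kept out also carried *Igf1*. Its level there was 75.8 and 70.3 CPM with high *Hoxb5*, 43.2 and 52.5 with high *Nr2f2*, and 37.7 and 57.6 with high *Cdkn1c*. *Dmkn* ran from 22.8 to 70.8 CPM in those cells and *Ntf3* from 1.74 to 7.31. High *Igf1* and *Dmkn* were thus not particular to the gated neurons.

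**Figure D1:**
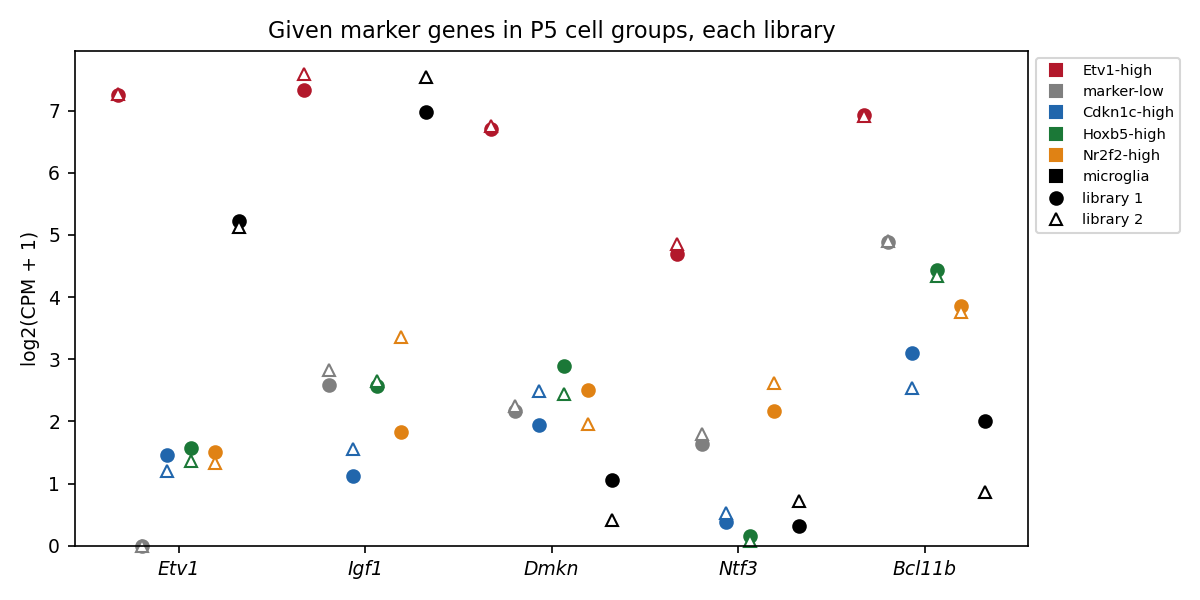
Levels of the 5 marker genes as log2(CPM + 1) in the summed cells of each P5 group, filled circles for library 1 and open triangles for library 2. *Etv1*-high neurons lie above the other 4 neuron groups for each gene, and microglia reach similar levels for *Igf1* alone.

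The P5 sort also held microglia, and these cells themselves carry *Igf1* and *Etv1*. Barcodes with at least 2 UMIs each of *C1qa* and *C1qb* and under 5 of *Mapt* had 125 and 186 CPM of *Igf1* and 36.2 and 33.8 of *Etv1*, but 1.08 and 0.325 of *Dmkn*, 0.240 and 0.649 of *Ntf3*, and 3.00 and 0.812 of *Bcl11b*. The summed level of 8 microglial markers was 92.4 and 99.2 CPM in *Etv1*-high neurons, 111 and 96.9 CPM in marker-low neurons, 73.1 and 53.5 CPM in *Cdkn1c*-high neurons and 17940.1 and 18589.6 CPM in microglia. Of the 3 microglial markers that could be tested, none was called against marker-low neurons, and 2, *C1qb* among them, were higher than in *Cdkn1c*-high neurons, where 18.1% of all genes were higher. The part of microglial RNA in the results was not tested. Thinned to 5000 UMIs, 40.1% and 40.8% of *Etv1*-high neurons still carried an *Igf1* UMI and 34.3% and 33.1% a *Dmkn* UMI, against 2.41% and 2.30%, and 1.36% and 1.51%, of marker-low neurons. In *Cdkn1c*-high neurons the thinned share with *Igf1* was 0.130% and 1.14%, and in microglia the thinned share with *Dmkn* was 0.423% and 0.202%. Without thinning, 68.2% and 70.8% of *Etv1*-high neurons carried *Igf1*, 62.8% and 68.5% *Dmkn*, 40.1% and 43.8% *Ntf3*, and 89.7% and 92.3% *Bcl11b*.

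Other cell types left a different trace in each library. The 8 oligodendrocyte-lineage markers summed to 422 CPM in *Etv1*-high neurons of library 1 but to 162 in library 2, against 241 and 181 in marker-low neurons. Of the 3 of these markers that could be tested, *Olig1*, a transcription factor of the lineage, was higher (9.64 and 6.21 CPM against 3.73 and 2.66), and the part of oligodendrocyte RNA in the results was not tested. The 8 astrocyte markers summed to 230.4 and 151 CPM against 198 and 148, and none of the 5 that were tested differed from marker-low neurons. Inhibitory markers were lower in *Etv1*-high neurons, at 17.2 and 15.9 CPM against 40.1 and 40.6, nearly all of it *Gad2*, and *Slc32a1*, the vesicular GABA transporter, was at 0 in both libraries. Markers of cerebellar lineages summed to 13.96 and 17.3 CPM against 36.4 and 29.7, with *En1* and *Tlx3* at 0.

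The label of glutamatergic PN neuron was set beside genes of that lineage, among which *Barhl1* and *Slc17a6* were required by the rule itself and check nothing. *Barhl1*, a homeobox gene of the rhombic lip lineage, stood at 264 and 306 CPM in *Etv1*-high neurons against 179.6 and 189 in marker-low neurons, and the nuclear factor gene *Nfib* at 1763 and 1637 against 1532 and 1412. *Pax6*, a transcription factor of PN neurons, was present at 77.9 and 61.3 CPM against 97.0 and 98.6, and *Zic1*, a zinc finger gene of the same lineage, at 254 and 253 against 573 and 580.3. At least 1 UMI of 7 Hox genes of paralog groups 2 to 4, which mark the caudal hindbrain, was found in 99.6% and 100% of the *Etv1*-high neurons. All of these genes outside the rule were thus detected, with *Pax6* and *Zic1* below their levels in marker-low neurons.

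Expression of the marker genes was graded along *Etv1*. Grouped by their *Etv1* UMIs, neurons with 0, 1, 2, 3 to 4 and at least 5 UMIs had 5.00, 13.7, 34.8, 88.0 and 273 CPM of *Igf1* in library 1, and 6.09, 13.5, 38.2, 104 and 281 CPM in library 2. *Dmkn* rose in the same order, from 3.48 to 174 CPM and from 3.73 to 147. *Bcl11b* went from 28.7 to 156 CPM and from 29.0 to 139.6, and *Ntf3* from 2.09 to 31.7 and from 2.47 to 35.2 with 1 reversal in library 2, where cells with 1 *Etv1* UMI had 15.5 CPM and those with 2 had 8.34. Median UMIs per cell were also higher at the top of these bins than at the bottom, 40485.5 against 27765 and 47601 against 30752, with 1 step down in library 2, from 44700 at 2 *Etv1* UMIs to 42382 at 3 to 4. Their part in the gradient was not tested.

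**Figure D2:**
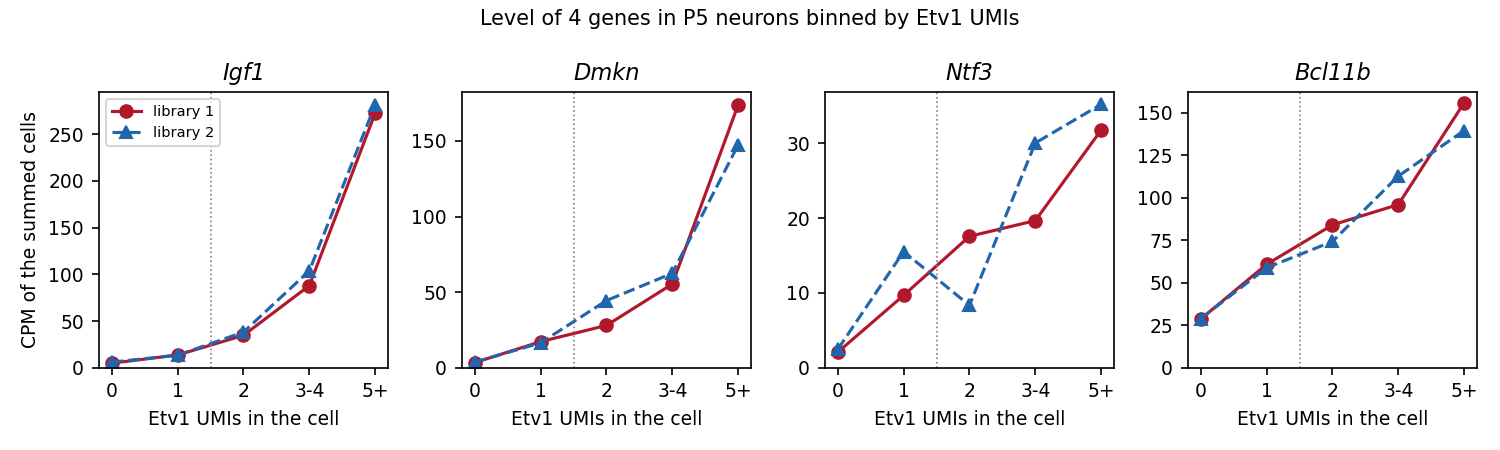
CPM of *Igf1*, *Dmkn*, *Ntf3* and *Bcl11b* in summed P5 neurons of each *Etv1* UMI bin, circles for library 1 and triangles for library 2; the dotted line marks the lower limit of the rule. *Igf1* climbs from 5.00 and 6.09 CPM at no *Etv1* UMI to 273 and 281 CPM at 5 or more.

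Single cells differed in which markers they carried. Of the genes *Igf1*, *Dmkn*, *Ntf3* and *Bcl11b*, 67 of 242 neurons in library 1 and 45 of 130 in library 2 had a UMI of all 4, while 14 and 5 had none. *Igf1* and *Dmkn* were found together in 132 and 78 neurons, *Igf1* alone in 33 and 14, *Dmkn* alone in 20 and 11, and neither in 57 and 27. The neurons with both had more *Etv1* (205 and 207 CPM) than those with neither (68.3 and 59.2 CPM), at median depths of 40000.5 and 46187 against 36426 and 46684 UMIs. They also had more *Bcl11b* (144 and 149 against 70.5 and 59.9 CPM), more *Ntf3* (35.6 and 38.5 against 7.05 and 9.86) and more of the reprimo-like gene *Rprml* (139.8 and 171 against 72.3 and 44.0). *Epha5*, an ephrin receptor gene, followed at 492 and 408 against 209 and 238 CPM, whereas the neuropeptide gene *Sst* went the other way, at 627 and 689 against 989 and 863. These splits were made on the measured genes and are given without a test.

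Genes outside the rule were then compared between *Etv1*-high and each of the 4 other groups, to ask which transcripts differed from those groups. The marker-low group was not split further. It included neurons with *Sst*, which was found in 84.4% and 83.8% of its cells, and no group chosen for high *Sst* was compared. UMIs were summed per library and group, and edgeR's quasi-likelihood test with the library as a block was run over 11760 genes, calling a gene at a false discovery rate (FDR) under 0.05 and a log2 change beyond 0.25. It called 2234 genes (19.0%) against marker-low, 4171 (35.5%) against *Cdkn1c*-high, 2543 (21.6%) against *Hoxb5*-high and 3708 (31.5%) against *Nr2f2*-high neurons. Against marker-low neurons 1133 genes were higher (9.63%) and 1101 lower (9.36%). The shares higher and lower were 18.1% and 17.4% against *Cdkn1c*-high, 10.1% and 11.5% against *Hoxb5*-high, and 16.1% and 15.4% against *Nr2f2*-high neurons. The 4 comparisons share the *Etv1*-high sums and are not independent. In all 4 of them, 494 genes were higher (4.2%) and 466 lower (3.96%). With cells thinned to 5000 UMIs and 6737 genes tested, these became 189 and 148 genes, of which 162 and 114 were among the 494 and 466. Without the library block they became 238 and 197 genes, all of them among the 494 and 466. Within single libraries the direction held for 2229 of the 2234 genes in library 2 and for all 2234 in library 1. Those genes were called from the same 2 libraries, so this agreement was largely set by the calling and is no separate support.

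Among genes higher in all 4 comparisons and at 20 CPM or more in *Etv1*-high neurons, those with the largest differences beside *Igf1*, *Dmkn*, *Ntf3* and *Bcl11b* included 3 that encode receptors or their subunits. *Shisa8*, an auxiliary subunit of AMPA receptors, stood at 35.5 and 43.9 CPM against 5.35 and 7.23 in marker-low neurons, a log2 difference of 2.69 (SE 0.106, edgeR FDR 1.02e-17). *Gabrd*, the delta subunit of extrasynaptic GABA-A receptors, stood at 22.2 and 32.5 CPM against 4.42 and 5.97 (2.40, SE 0.115, FDR 1.95e-16), and *Adra2a*, the alpha-2A adrenergic receptor, at 79.3 and 81.2 against 17.9 and 19.1 (2.14, SE 0.0668, FDR 8.92e-21). The *Etv1*-high values of these 3 genes did not overlap those of any comparator group, but the genes were chosen for large differences in these same sums.

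The cell-surface genes *Cdh13* and *Megf11* were among them too. *Cdh13*, the GPI-anchored T-cadherin, measured 42.3 and 47.6 CPM against 8.97 and 9.80 in marker-low neurons (log2 2.27, SE 0.0929, FDR 8.59e-18), but 25.3 and 26.4 in *Hoxb5*-high neurons, from which it differed by 0.78. *Megf11*, an adhesion protein of the MEGF family, measured 22.6 and 23.9 CPM against 5.18 and 6.35 (2.04). The others of the 12 largest rises among genes at 20 CPM or more were *Fam210b*, a mitochondrial protein (45.5 and 39.0 CPM against 7.14 and 8.90, log2 2.45), *Ndst3*, a heparan sulfate-modifying enzyme (25.9 and 28.0 against 6.60 and 5.71, log2 2.13), and *Pde1c*, a calmodulin-dependent phosphodiesterase (65.6 and 57.6 against 16.4 and 16.4, log2 1.94).

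*Galr1*, a galanin receptor gene, fell most among genes lower in all 4 comparisons and at 20 CPM or more in marker-low neurons. Its level was 1.91 CPM in both libraries of *Etv1*-high neurons, 24.6 and 20.1 in marker-low neurons and 4.82 to 16.4 in the other groups (log2 against marker-low -3.57, SE 0.197, FDR 7.57e-14). *Gal*, which encodes the ligand galanin, was lower as well, at 6.83 and 10.3 CPM against 20.9 and 26.2 (-1.47). Ligand and receptor were thus both lower in *Etv1*-high neurons of both libraries, but both genes were chosen for large falls in these same sums.

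*Ntrk3*, which encodes the neurotrophin-3 receptor TrkC, stood at 12.3 and 7.16 CPM in *Etv1*-high neurons, the group with the highest level of its ligand *Ntf3*. It stood at 61.0 and 49.6 CPM in marker-low, 103 and 92.1 in *Cdkn1c*-high, 37.6 and 29.7 in *Hoxb5*-high and 124 and 107 in *Nr2f2*-high neurons (log2 against marker-low -2.44, SE 0.0958, FDR 5.28e-18). *Etv6*, an ETS family repressor, was at 7.93 and 4.77 CPM against 36.9 and 23.5 (-2.21). Both genes were lower in *Etv1*-high neurons than in each comparator group in both libraries, but they were chosen for large falls in these same sums.

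Further falls in all 4 comparisons, by the same limit on level, took in *Stxbp6*, a syntaxin-binding protein (log2 against marker-low -1.92), *Nhlh2*, a basic helix-loop-helix factor (-1.56), *Epcam*, an adhesion molecule (-1.55), *Hap1*, a huntingtin-associated protein (-1.52), *Dab1*, the Reelin adaptor (-1.51, FDR 0.00711), *Adamts18*, a metalloprotease (-1.41), and *Camk1*, a calcium-dependent kinase (-1.41). Their levels in *Etv1*-high neurons lay between 3.18 and 12.9 CPM. Of the 23 genes named from these 2 lists, *Dab1* had the weakest evidence, with an FDR of 0.0447 against *Nr2f2*-high neurons.

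**Figure D3:**
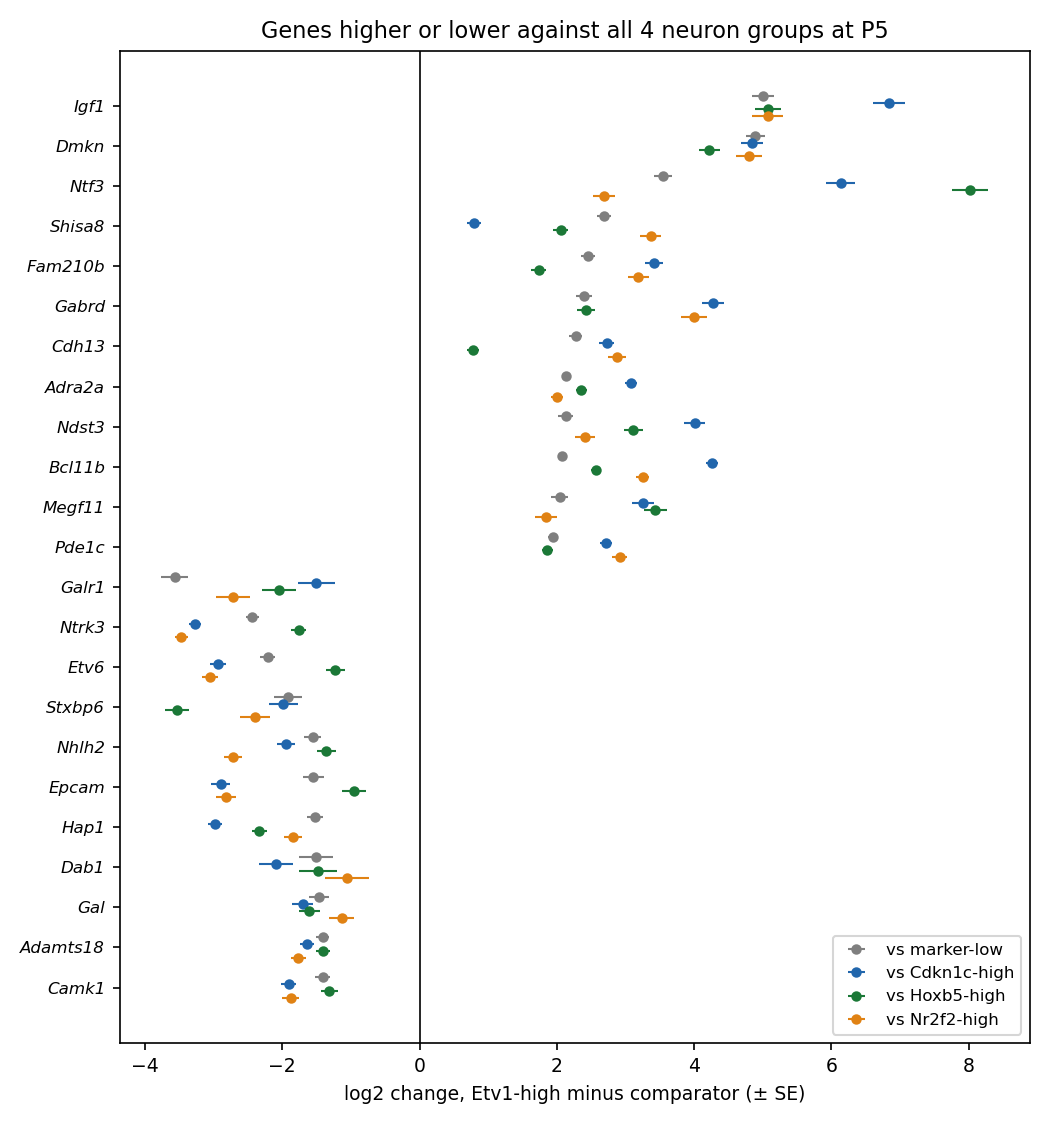
Log2 difference between *Etv1*-high neurons and each of 4 other P5 neuron groups for 12 genes with large rises and 11 with large falls against marker-low neurons, with bars of 1 standard error from edgeR. The genes were chosen among those called in the same direction in all 4 comparisons, so every point of the first 12 lies right of 0 and every point of the others left of it. *Igf1*, *Dmkn*, *Ntf3* and *Bcl11b* are given markers. *Cdh13* and *Shisa8* come closest to 0 among the rises, against *Hoxb5*-high and *Cdkn1c*-high neurons.

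Ligands and receptors of the growth factor families to which *Igf1* and *Ntf3* belong were described next, against marker-low neurons, in which comparison 9.63% of all genes were higher and 9.36% lower. These shares are the background for each list count below against marker-low neurons. Of 19 genes of the IGF axis 13 were tested, with 3 higher, 1 of them the given marker *Igf1*, and 1 lower (median log2 change 0.05, all genes 0.00). Besides *Igf1*, the binding protein gene *Igfbp5* rose, from 157 and 160.1 CPM to 311 and 336 (log2 1.04), as did *Igfbp4* (0.48), while *Igfbpl1* fell (-0.67). The receptor genes were not called, with log2 changes of -0.22 for *Igf1r* (FDR 0.0191, below the limit on size), 0.10 for *Insr* and 0.29 for *Igf2r* (FDR 0.0767). Of 17 neurotrophin and related genes 12 were tested, with 4 higher, the given marker *Ntf3* among them, and 3 lower. *Bdnf*, encoding brain-derived neurotrophic factor, rose from 142 and 137.5 CPM to 286 and 293 (1.07), the GDNF family receptor gene *Gfra2* fell (-0.96), and *Ntrk2*, the receptor gene for *Bdnf*, was not called (0.06). Among 15 tested genes of FGF signalling and the PEA3 group, *Spry2*, a feedback inhibitor of receptor tyrosine kinase signalling, rose from 3.44 and 3.45 to 8.33 and 8.60 CPM (1.31), *Fgfr2* rose by 0.26, and none fell. *Etv5*, the PEA3 relative of *Etv1* that could be tested, was not called.

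Transcription factors of the PN lineage were lower more often than higher. Of 33 tested factors 4 were higher and 18 lower than in marker-low neurons (median log2 change -0.44), against 9.63% and 9.36% of all genes. *Bcl11b* and *Mef2c*, an activity-dependent MADS box factor (62.6 and 61.1 CPM against 27.7 and 23.6, log2 1.28), were higher. *Ebf1*, an early B cell factor gene, fell from 441 and 386 CPM to 154 and 126 (-1.54), and *Prox1* (-1.77) and *Pou3f2* (-1.67) fell at levels of 0.955 to 3.01 CPM in *Etv1*-high neurons. *Prox1* was found in 4.55% and 3.85% of *Etv1*-high neurons and met the detection filter only in other groups, which favoured its direction. Among 10 tested Hox genes 4 were higher and 1 lower. *Hoxc4* measured 66.2 and 77.5 CPM against 21.6 and 22.5 in marker-low neurons (1.71) and 206 and 204 in *Hoxb5*-high neurons. *Hoxa4* (1.39), *Hoxb4* (0.93) and *Hoxa3* (0.69) were also higher than in marker-low neurons and *Hoxb3* was lower (-0.51). Against *Hoxb5*-high neurons the balance was the reverse, with 1 Hox gene higher and 6 lower (10.1% and 11.5% of all genes).

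Axon guidance and adhesion genes changed in both directions. Among 17 tested Eph receptor and ephrin genes 6 were higher and 2 lower. *Epha5* rose from 152 and 131 CPM to 405 and 354 (log2 1.44, SE 0.0339, FDR 1.52e-23), *Epha4* from 73.5 and 69.9 to 104 and 105 (0.56), and *Efnb2* fell (-1.05). Of 33 tested guidance genes 6 were higher and 16 lower (median -0.29), including the repellent gene *Slit3* (-1.77), *Sema3d* (-1.53), the semaphorin co-receptor gene *Nrp1* (97.4 and 78.2 CPM to 40.6 and 33.1, -1.23) and the netrin receptor gene *Unc5b* (-1.04). Of 22 cadherins and protocadherins 8 were higher and 8 lower. *Cdh7* measured 207 and 209 CPM against 80.7 and 72.2 (1.46), whereas *Pcdh8* (-2.20) and *Cdh18* (-1.72) were lower.

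Excitability and transmission genes showed more rises than falls against marker-low neurons among ion channels and glutamate receptors. Of 41 tested ion channel genes 16 were higher and 5 lower. *Kcna1*, a voltage-gated potassium channel, rose from 35.4 and 32.8 CPM to 81.3 and 78.1 (log2 1.24), *Kcnip4* (1.17) and *Kcnab1* (1.14), accessory subunits of potassium channels, also rose, and the calcium channel subunit gene *Cacna2d3* fell (15.8 and 11.8 to 2.51 and 1.11, -2.83). Against *Hoxb5*-high neurons, which were closest in depth, the ion channel counts were 6 higher and 7 lower of 41, where 10.1% and 11.5% of all genes were higher and lower. Of 31 glutamate receptor genes 12 were higher than in marker-low neurons, among them *Grm8* (1.32), and 4 lower, among them *Grik4* (-1.73) and *Cacng8* (-1.41). Against *Hoxb5*-high neurons 12 of the 31 were higher and 9 lower. Glycine receptor genes *Glra1* (6.43 and 10.3 CPM against 1.22 and 1.19, log2 2.74) and *Glra3* (1.79) and the GABA-A subunit gene *Gabra5* (0.89) were among 4 of 17 tested GABA and glycine receptor genes that were higher, while *Gabrg3* (-1.01) was among 4 that were lower.

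*Slc17a7*, the VGLUT1 vesicular glutamate transporter gene, measured 66.6 and 72.3 CPM against 37.1 and 35.9 (0.93), while *Gad2* (-1.23), a GABA synthesis gene, was lower. Of 11 tested neuropeptide genes 1, *Adcyap1* (79.9 and 91.4 CPM against 40.2 and 48.1, log2 0.98), was higher and 5 were lower, including *Pnoc* (72.7 and 85.4 to 16.8 and 26.9, -1.89), *Gal* and *Nmb* (-1.20). *Sst* was lower by a smaller margin (904 and 1118 to 691 and 719, -0.49), but was higher than in *Cdkn1c*-high (1.88) and *Hoxb5*-high neurons (1.70). The neuropeptide counts turned against *Cdkn1c*-high neurons too, with 6 higher and 3 lower (18.1% and 17.4% of all genes). Neurofilament genes were higher in 4 of 5, namely *Nefh* (1.09), *Nefm* (0.93), *Prph* (0.84) and *Nefl* (0.39). Of 12 calcium-binding genes 4 were higher, led by *Necab3* (0.77), *Hpcal1* (0.71) and *Sncg* (0.70), and 3 lower, led by *Calb2* (439 and 463 to 264 and 300.0, -0.67). Of 21 genes for neuronal maturation 2 were higher and 1 lower. Of 14 immediate early genes 1, *Npas4*, was higher and 4 were lower, among them *Fosb*, *Dusp1* and *Jun*, where 9.36% of all genes were lower.

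Of the subtype PN6 list given by the study, all 9 genes tested, *Igf1*, *Dmkn* and *Bcl11b* among them, were higher in *Etv1*-high than in marker-low neurons, and 8 of 9 were higher than in *Hoxb5*-high neurons, where *AI593442* was not called and 10.1% of all genes were higher. That list was chosen from these P5 libraries and is not independent evidence. The lists for other subtypes name genes of neurons other than these and were also chosen with results of these data known. Lower levels of their genes are therefore not independent evidence either. Lists for other subtypes were mostly lower against marker-low neurons: of 8 genes each, 5 of the *Sst* list, 5 of the *Cdkn1c* list and 6 of the *Nr2f2* list were lower and 1 of each was higher, and of 9 genes of the *Cdh8* list 8 were lower and none higher. The *Hoxb5* list had 3 higher and 2 lower of 8. The direction of the *Sst* list turned with the comparator, as 7 of its 8 genes were higher and none lower against *Cdkn1c*-high (18.1% of all genes higher) and against *Hoxb5*-high neurons (10.1%), and 4 were higher and 1 lower against *Nr2f2*-high neurons (16.1% and 15.4%).

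The embryonic libraries played no part in the rule, and the same limits were applied to them, with at least 1 UMI of the 7 Hox genes added because whole hindbrains also hold lineages without Hox genes. At E18.5 this gave 8, 4 and 25 *Etv1*-high neurons in control libraries 1, 2 and 3 and 11, 12 and 22 in mutant libraries 1, 2 and 3. *Etv1*-high and marker-low neurons were compared in the 4 libraries with at least 10 cells in both groups, which were control 3 and the 3 mutants, with the library as a block. Of 10397 genes tested 414 were called (3.98%), 268 higher (2.58%) and 146 lower (1.4%) in *Etv1*-high neurons. The comparison therefore rests on 3 mutant libraries and 1 control, and genotype, stage and dissection (whole hindbrain or PN) cannot be told apart when it is set beside P5. *Etv1*-high neurons were again the deeper ones, with medians of 23897, 21433.5 and 19455 UMIs in mutants 1, 2 and 3 and 23046 in control 3. Marker-low neurons had 18638, 17720, 16716 and 19446.5. No thinned fit was made at E18.5, and the part of depth was not tested.

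*Igf1* was again high in the 4 fitted libraries of E18.5, with 50.4, 54.6 and 62.7 CPM in *Etv1*-high neurons of mutants 1, 2 and 3 and 61.8 in control 3, against 7.61, 0, 0.397 and 1.65 in marker-low neurons (log2 4.64, SE 0.492, FDR 1.71e-05). The values of the 4 libraries did not overlap. In control libraries 1 and 2, which entered no fit, no *Igf1* UMI was found in the 8 and 4 cells, which allows up to 13.4 and 31.6 CPM. Both limits lie below the 50.4 CPM of the lowest fitted library, and marker-low neurons there had 1.41 and 1.91 CPM. Among the controls, high *Igf1* was thus seen in control 3 alone. *Bcl11b* stood at 75.6, 147 and 211 CPM in the mutants and 176 in control 3, against 28.5, 17.95, 31.3 and 32.1 (2.49, FDR 1.69e-12), and *Adra2a* at 104, 102, 155 and 115 against 23.8, 22.7, 25.8 and 25.1 (2.33, FDR 3.47e-12). Both genes were higher in *Etv1*-high neurons in 4 of 4 fitted libraries, and in controls 1 and 2 they measured 35.8 and 84.2 CPM against 30.2 and 27.4 (*Bcl11b*) and 107 and 179 against 19.0 and 24.9 (*Adra2a*). Without the Hox requirement *Bcl11b* kept its direction (1.81) but had an FDR of 0.138.

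*Ndst3* (log2 1.45), *Pde1c* (1.16), *Fam210b* (0.98) and *Megf11* (1.66, FDR 0.0432) were also higher at E18.5, each in 4 of 4 fitted libraries, and *Ntrk3* (-1.80, FDR 4.08e-06), *Nhlh2* (-1.59) and *Adamts18* (-1.52) were lower in 4 of 4. In the few cells of controls 1 and 2, which entered no fit, *Ndst3* measured 17.9 and 73.7 CPM against 29.5 and 8.92, *Pde1c* 22.4 and 0 against 20.4 and 16.6, *Fam210b* 13.4 and 42.1 against 12.7 and 14.7, and *Megf11* 0 in both against 4.22 and 5.10. *Ndst3* was thus lower in control 1, while *Ntrk3*, *Nhlh2* and *Adamts18* were lower in both. A level of 0 in these small sums allows up to 13.4 CPM in control 1 and 31.6 in control 2. No fall is therefore shown for *Pde1c* in control 2 or for *Megf11* in either. Of the PN6 list, *AI593442* (2.04), *Epha5* (1.52), *Rprml* (1.40) and *Neto2* (0.89), which encodes an auxiliary subunit of kainate receptors, were higher, and *Nefm*, a neurofilament gene, was lower (-0.69, FDR 0.00234), opposite to its direction at P5. In controls 1 and 2 *AI593442* measured 134 and 147 CPM against 131 and 61.8, and *Epha5* 251 and 179 against 246 and 109, so that control 1 showed little difference in either. *Igfbp5* of the same list was not called (0.44, FDR 0.385), and measured 26.9 and 0 CPM against 94.9 and 22.3 in controls 1 and 2. *Nefm* measured 144, 126, 76.2 and 106 CPM in *Etv1*-high neurons of mutants 1, 2, 3 and control 3, against 166, 135, 154 and 247 in marker-low neurons. *Megf11* had 2 to 11 UMIs in the *Etv1*-high sums and 4 to 12 in the marker-low sums, which held more cells. It met the detection filter only in *Etv1*-high neurons, where it was higher, so its direction was favoured by the filter. The calls of *Megf11* and *Fam210b* were lost in 10 and 6 of the alternative settings, which gave 192 values for 16 named genes at E18.5. *Ndst3* lost its call without the Hox requirement (0.55, FDR 0.354), and *Nhlh2* with at least 3 *Etv1* UMIs (-1.79, FDR 0.0514).

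*Ntf3* and *Cdh13* were not called at E18.5. *Ntf3* measured 17.99, 13.7 and 17.9 CPM in *Etv1*-high neurons of mutants 1 to 3 and 9.75 in control 3, against 3.33, 5.67, 4.37 and 13.6 in marker-low neurons (1.06, FDR 0.257), and was higher in 3 of 4 fitted libraries. In the unfitted controls 1 and 2 *Ntf3* measured 4.48 and 0 CPM against 14.1 and 5.10. These levels rest on 1, 0 and 6 *Ntf3* UMIs in *Etv1*-high neurons of controls 1, 2 and 3 and on 4 to 8 in the mutants. Without the Hox requirement *Ntf3* stood at 58.7 and 22.3 CPM in *Etv1*-high neurons of controls 1 and 3 and at 31.3, 13.1 and 22.9 in mutants 1, 2 and 3, and the difference between genotypes did not pass the test (log2 mutant minus control -0.62, edgeR FDR 0.996). *Cdh13* was higher in 1 of 4 fitted libraries, control 3 (35.8 against 25.1 CPM), and lower in the mutants (7.20, 3.41 and 6.72 against 10.9, 6.61 and 26.2). In the unfitted controls 1 and 2 it measured 0 and 73.7 CPM (7 UMIs) against 24.6 and 15.3. *Hap1*, *Etv6*, *Dab1* and *Camk1* were not called, and *Dmkn*, *Shisa8*, *Gabrd*, *Galr1*, *Stxbp6*, *Epcam* and *Gal* were found in too few cells to be tested. *Dmkn* had 7 UMIs in all *Etv1*-high neurons of E18.5. The difference between *Etv1*-high and marker-low neurons itself differed between the P5 and E18.5 libraries for 252 of 11638 genes (2.17%, edgeR interaction term). *Cdh13* was among them, but it was named for its large difference at P5, a choice that favours such a gap. Stage, dissection and genotype cannot be told apart in this term. For *Ntf3*, chosen from the P5 libraries, the gap is a description without a test.

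**Figure D4:**
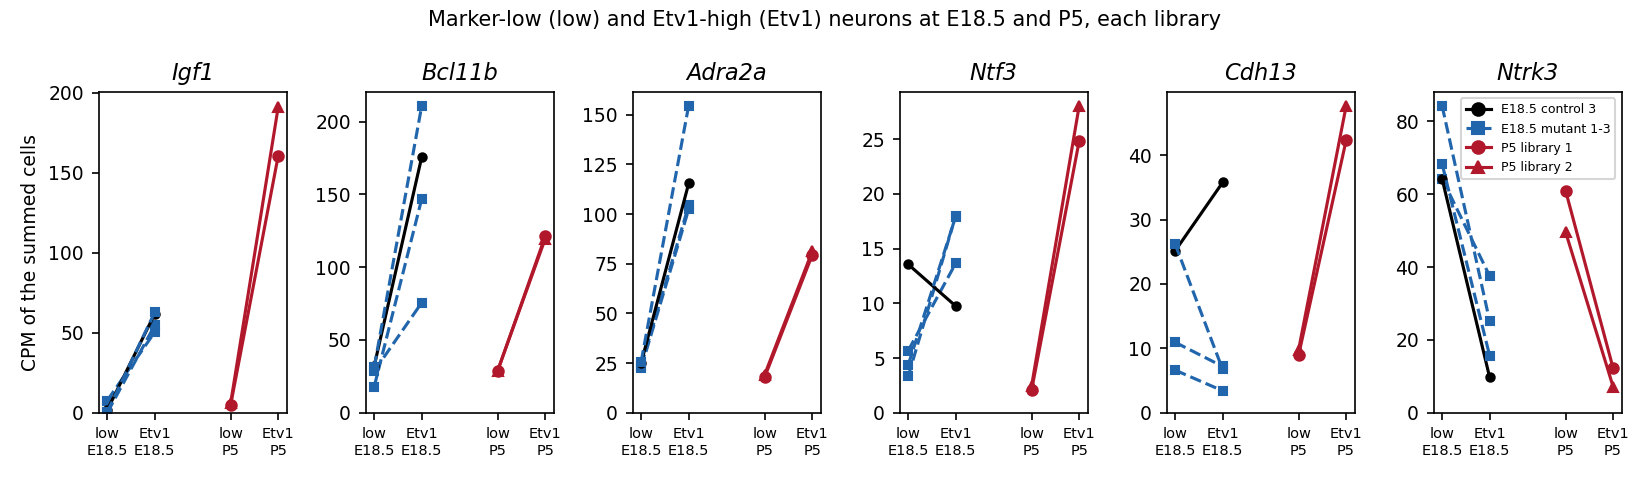
CPM of 6 genes in marker-low (low) and *Etv1*-high (*Etv1*) neurons, joined within each library, at E18.5 (black circles for control 3, blue dashed squares for mutants 1 to 3) and P5 (red). *Igf1*, *Bcl11b* and *Adra2a* rise and *Ntrk3* falls in every library shown, while *Ntf3* and *Cdh13* run in different directions among the E18.5 libraries.

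Over the longer lists, of the 494 genes higher in all 4 P5 comparisons 382 could be tested at E18.5, where 97 were called higher (25.4%, against 2.58% of all genes) and 4 lower, with a median log2 change of 0.45. Of the 466 genes lower at P5, 350 were tested, 44 were lower (12.6%, against 1.4%) and 0 higher, with a median of -0.35. *Etv1*-high neurons were deeper than marker-low neurons at both ages, and the part of depth in these shares was not tested. Some of the gene lists differed from P5 against the same group. Of 26 tested guidance genes 4 were higher and 0 lower (median 0.22), and of 7 tested genes of the *Sst* list 5 were higher and 0 lower (median 0.77). Transcription factors of the PN lineage kept their direction, with 1 higher and 11 lower of 31. The largest fitted rises at E18.5 were in Chil5, a chitinase-like gene (4.82, on 2 to 3 UMIs in each *Etv1*-high sum), *Igf1*, *Rspo3*, an enhancer of Wnt signalling (4.25), *Fibcd1*, a membrane receptor that binds acetylated ligands (3.45), and *Sema3c*, a secreted semaphorin (3.33, with 35.8 to 51.2 CPM against 1.98 to 6.66). *Rspo3* was uneven, at 0, 27.3 and 6.72 CPM in mutants 1, 2 and 3 and 35.8 in control 3. The largest falls were in Pdzrn3, a ubiquitin ligase gene (-3.55), *Lpp* (-3.48), *Man1a* (-3.32), *Hmcn1* (-3.31) and *Hoxa5* (-2.78). In mutant 2 *Hoxa5* was not lower, at 10.2 CPM against 7.56 in marker-low neurons. Each *Etv1*-high sum held 0 to 3 UMIs of the 5 falling genes, so the size of the fitted falls depends on the prior count. The detection filter could be met in either group. The genes of the largest rises, *Igf1* among them, and of the largest falls met it only in the group where they were higher. Their direction was thus favoured by the filter.

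The share of *Etv1*-high neurons was compared between genotypes at E18.5, to ask whether lowered *Atoh1* function changed how many there were among these neurons. Of Hox-positive base-gate neurons they made up 2.02%, 1.06% and 3.07% in controls 1, 2 and 3 (mean 2.05% ± 1.00, SD, n = 3) and 2.46%, 5.50% and 4.55% in mutants 1, 2 and 3 (4.17% ± 1.56, SD, n = 3). The difference of 2.13 percentage points did not pass the exact two-sided permutation test (p = 0.2, where 3 against 3 libraries allow 0.1 at the least). The mutant was higher in 3 of 3 same-numbered pairs, for which an exact sign-flip test gave p = 0.25, the smallest it allows. The denominators differed, with 397, 377 and 815 neurons in controls and 447, 218 and 483 in mutants. As a share of all cells within the quality limits, *Etv1*-high neurons were 0.138% ± 0.121 in controls and 0.165% ± 0.0813 in mutants (SD, n = 3 each, exact permutation p = 0.8), with the mutant higher in 1 of 3 pairs.

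**Figure D5:**
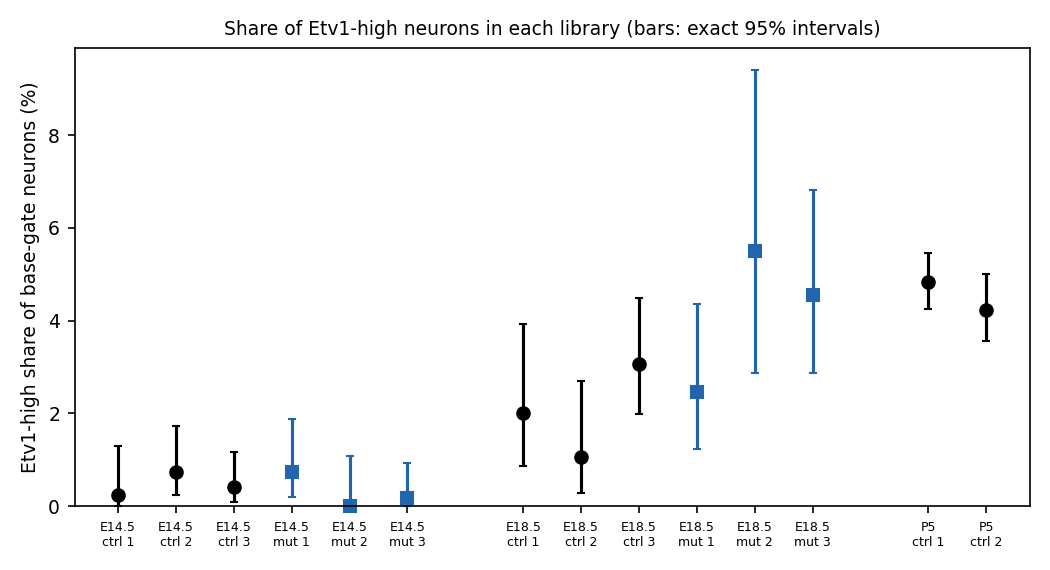
Share of *Etv1*-high neurons among base-gate neurons (Hox-positive ones at E14.5 and E18.5) in each library, black circles for controls and blue squares for mutants, with exact 95% intervals of counting error. Mutant libraries at E18.5 reach 2.46% to 5.50% and controls 1.06% to 3.07%, and the ranges overlap.

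Gene expression of the *Etv1*-high neurons was not compared between genotypes under the Hox requirement, since only 1 control library met the limit of at least 10 of them set here. Without the Hox requirement 2 control and 3 mutant libraries had enough. Dropping it took controls 1 and 3 from 8 and 25 cells to 13 and 38. Mutants 1, 2 and 3 went from 11, 12 and 22 to 18, 13 and 27. The added cells had no UMI of the Hox genes and were uneven between libraries, so the make-up of the cells cannot be told apart from genotype. In this fit edgeR called 0 of 10588 genes (0.0%), with 457 genes at an unadjusted p under 0.05. *Qk*, an RNA-binding protein gene, came closest (log2 mutant minus control -1.25, FDR 0.562). A fit with the pair as a block could use only 4 libraries, since mutant 2 lost its partner (control 2 had under 10 cells), and called 2 genes, *Ebf1* (-1.32, FDR 0.00324) and the neurofilament gene *Nefl* (-1.03, FDR 0.0401), both lower in the mutant. The same 4 libraries without the block gave 1 call, again *Ebf1* (-1.31, FDR 0.0494), so leaving out mutant 2 and adding the block both changed the calls. These genes were named after their values were seen. *Igf1* did not pass, at 0 and 44.6 CPM in controls 1 and 3 and 33.7, 52.4 and 53.4 in mutants 1, 2 and 3 (0.64, SE 0.837, FDR 0.996).

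At E14.5 the rule with the Hox requirement found 14 cells among 3327 base-gate neurons, 0 to 5 per library and 0 to 0.743% of them, too few for a comparison. Without that requirement it found 25 among 3952. The library without any, mutant 2, had 341 Hox-positive base-gate neurons, which allows a share of up to 0.880% by 3 counts of the total and 1.08% by the upper end of the exact 95% interval.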

How the data were processed

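Sorted TdTomato-positive cells of 14 libraries (10x Genomics 3' assay) were measured. Per the study's methods, the authors aligned reads to mm10 with the added *WPRE* reporter sequence using Cell Ranger 5.0.1, and the deposited matrices hold raw UMI counts per gene and barcode, 31054 genes. The authors' later clustering and doublet removal are not in these counts, and no cell annotation was used here. Members, comparison groups and gene lists were chosen with earlier results of these data known.

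Cells with at least 1000 genes and under 10% mt- UMIs were kept. No doublets were removed in the main fits, and the 7.5% highest Scrublet scores per library were left out as an alternative. Counts were summed per library and group when a sum had at least 10 cells, and genes detected in 10% or more of the cells of 1 group entered edgeR 4.0.16 (TMM, robust quasi-likelihood, R 4.3.3), with Benjamini-Hochberg FDR under 0.05 and log2 change beyond 0.25 over all genes tested. Gate genes were left out of the tests. Shares were compared by exact permutation tests (scipy 1.17.1). The fit was tested on simulated data. Named genes were the gate genes and given markers, the 12 largest rises (at least 20 CPM in *Etv1*-high neurons) and 12 largest falls (at least 20 CPM in marker-low neurons) among genes called in all 4 P5 comparisons, up to 4 called members of each list with their ligands or receptors, and the 5 largest rises and falls at E18.5. *Mef2c*, *Hoxb3* and a few others called within a list were named after their values were seen. Some genes that the rule names are not reported here.

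The labels number the replicates and say that each mutant had a littermate control, but not that equal numbers mark one litter. Deviations of the E18.5 marker-low sums from the mean of their genotype correlated within pairs 1, 2 and 3 at 0.169, 0.143 and 0.353 over 9754 genes. Differently numbered libraries were not compared, so these values do not settle the pairing. The numbers were taken to pair the samples all the same. Alternatives were DESeq2 1.42.0, no filter, no block, no top doublet scores, under 5% mt- UMIs, at least 3 *Etv1* UMIs, thinning to 5000 UMIs, no Hox requirement and leaving out each library. An unplanned one used all 6 E18.5 libraries. Intervals and limits cover counting error only.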

Additional observations from a re-analysis of the deposited data

Results flagged for a closer look

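For 4 of the named genes beside the given markers the difference between *Etv1*-high and marker-low neurons itself differed between P5 and E18.5, by an interaction term in edgeR over 11638 genes, of which 252 (2.17%) passed. For *Cdh13* the gap was 2.44 on the log2 scale (P5 minus E18.5, edgeR FDR 6.72e-08), from 2.27 at P5 and -0.23 at E18.5, for *Fam210b* 1.48 (FDR 5.17e-05) and for *Pde1c* 0.77 (FDR 0.0228). *Hap1* (-1.28, FDR 0.0384) was lower in *Etv1*-high neurons at P5 by more than at E18.5. The given marker *Ntf3* had a gap of 2.61 (3.55 and 1.06), a description without a test because it was picked from the P5 libraries. The other 4 were named for their large differences at P5, a choice that favours larger differences at P5 than at E18.5. P5 libraries are pooled control PN and E18.5 libraries are single hindbrains, mostly mutant, so stage, dissection and genotype cannot be told apart. With 2 P5 libraries and 3 per genotype at each embryonic age, no group was large enough for an outlier test.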

How the results depend on the processing

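Against marker-low neurons at P5, all 160 recomputed values of the 23 named genes kept their direction and call. These genes, the given markers among them, were chosen for large differences in the same libraries, which favours that outcome. *Ntf3* could not be tested after thinning, and the other 3 comparisons were recomputed as counts only. The numbers of genes called fell without the replicate block to 862, 2491, 1281 and 1878 against marker-low, *Cdkn1c*-high, *Hoxb5*-high and *Nr2f2*-high neurons, and after thinning to 826, 1710, 870 and 1287. Genes higher and lower in all 4 comparisons fell to 238 and 197 without the block and to 189 and 148 after thinning, which also left fewer genes to test. With at least 3 *Etv1* UMIs the mean P5 share was 3.29% in place of 4.54%. At E18.5, 414 called genes became 200 by DESeq2, 165 with at least 3 *Etv1* UMIs (2 libraries), 197 without the Hox requirement and 259 to 293 with each library left out. They became 365 without the block, 424 with under 5% mt- UMIs, 441 without the top doublet scores and 447 without the filter. An unplanned fit of all 6 libraries, with 8 and 4 *Etv1*-high cells in controls 1 and 2, called 517. Of 192 values of 16 named genes at E18.5, 169 kept direction and call, 19 lost it, 1 gained it and 3 reversed: *Cdh13* with under 5% mt- UMIs (0.020) and, without mutant replicate 3, *Cdh13* and *Hap1*, whose values ran from -1.40 to 0.24 and from -0.49 to 0.034 with each library left out, none of them called in any of these fits. Between genotypes, 0 called genes became 2 with the pair as a replicate block, which also leaves out mutant 2 (1 call in the same 4 libraries without the block), and 0 to 11 with each library left out, the 11 arising without mutant replicate 1. The share difference at E18.5 ran from 0.0263 points (over all quality cells) and 0.934 (without the Hox requirement) to 2.98, and from 1.46 to 2.98 with each library left out in designs that could not reach p under 0.05. In the P5 and E18.5 comparisons with marker-low neurons, dropping the replicate block changed no call of the named genes. The causes were not tested. Few cells limit E18.5: 4 to 25 per library.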
